A study of Arabidopsis thaliana with 20 samples.

Results

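The genes described here are 6 nuclear genes of Arabidopsis thaliana that encode proteins of the plastid ribosome, measured by array in wild type and in a mutant of the chloroplast ATP synthase. They were chosen as the rows whose annotation lists exactly 1 gene, that gene being RPL5 (AT4G01310), RPL17 (AT3G54210), RPL29 (AT5G65220) or RPL34 (AT1G29070) of the large subunit, or RPS6 (AT1G64510) or RPS10 (AT3G13120) of the small subunit. These are 6 of 3439 rows in the table and 6 of the 692 rows with a single gene. Each gene has 1 row.

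The study set total RNA of wild type (WT), of ecotype Columbia 0, against total RNA of the atpc1-1 mutant of the same ecotype, described in the labels as lacking the gamma subunit of the ATP synthase. All plants were grown on MS medium, a standard mineral medium for plant culture, and the labels give no tissue, age or number of plants. Each genotype had 10 columns of deposited intensities. Columns with adjoining numbers were averaged, which gives 5 replicates per genotype, called 1 to 5 here. That such columns belong together is assumed, since the labels do not say so. With all 10 columns as replicates the same genes were called in rank. Nothing in the labels says that these replicates came from separate plants, so each p-value describes spread that may be technical in origin.

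Plastid ribosomes are of the bacterial type and translate the messages of the plastid genome, among them core proteins of the photosystems, the large subunit of Rubisco and most subunits of the chloroplast ATP synthase itself. Their own proteins come from both genomes. Those described here are made in the cytosol from nuclear messages and imported. In Escherichia coli the L5 protein anchors the smallest ribosomal RNA in the large subunit, and L17 and L29 lie around the exit of the nascent chain. S6 sits on the platform of the small subunit and S10 in its head.

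The columns differed between genotypes before any gene was considered. Median intensity ran from 0.339 to 0.493 over the WT columns and from 0.130 to 0.224 over those of atpc1-1. Rows at 0 made up 3.63% to 4.36% of a WT column but 5.70% to 20.8% of an atpc1-1 column. WT replicate 5 stood apart: its ranks correlated with those of the other WT replicates at Spearman rho 0.837 to 0.853 across rows, which are not independent, and with the atpc1-1 replicates at 0.770 to 0.864. No row lists ATPC1, the gene of that subunit, alone, so the genotypes rest on the labels. Of 10 markers of green tissue 4 had a row of their own, with mean percentile ranks from 85.8 to 99.8 (WT) and from 93.8 to 99.8 (atpc1-1). None of 11 markers of root, flower or seed had one. Having such a row depends on the array's probes and their annotation, not on expression, so these counts do not show the tissue. In bulk RNA, fewer cells of a type and less RNA per cell cannot be told apart.

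The 6 genes were the only ones of 40 listed nuclear genes for plastid ribosomal proteins with a row of their own, leaving 34 without. None of 20 listed plastid translation and transcription factors had one, and 0 other single-gene rows carried the words ribosomal protein in their names.

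**Figure D1:**
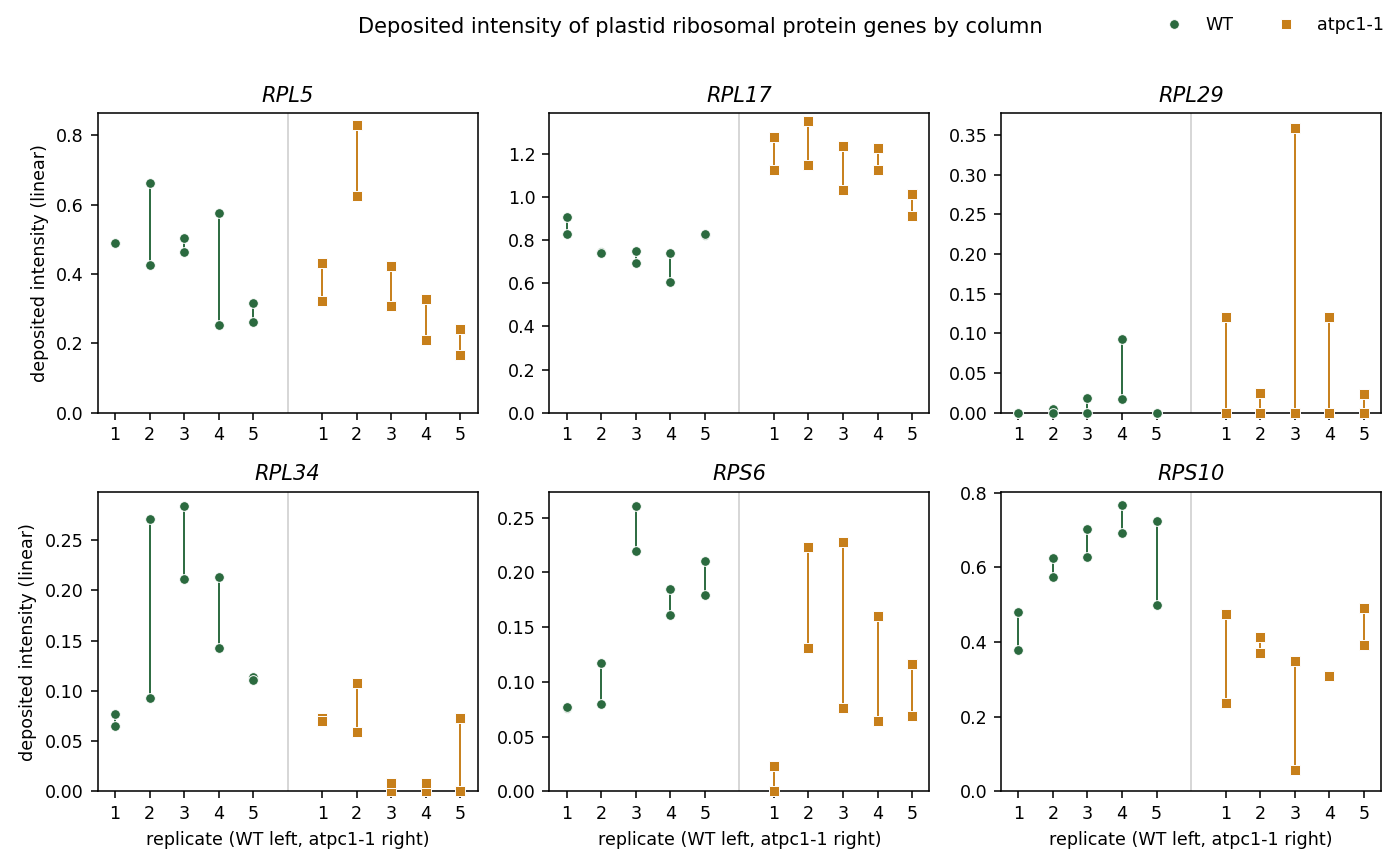
Deposited intensity (linear, no unit given) of each gene in all 20 columns. Points are single columns, and a vertical line joins the 2 columns of a replicate. The axis of each panel has its own scale, since a probe's brightness cannot be set against another probe's. RPL17 alone among the 6 genes separates the genotypes in all columns, while RPL29 alternates between 0 and a signal in atpc1-1.

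RPL17 was the gene of the group that differed most steadily. In WT its deposited intensity had a lowest value of 0.603, a median of 0.745 and a highest of 0.908 over 10 columns. In atpc1-1 the lowest was 0.911, the median 1.14 and the highest 1.35. Every atpc1-1 column therefore lay above every WT column on the scale as deposited, where typical rows were dimmer in atpc1-1. Of all rows, 1.69% separated the genotypes in this direction and 21% in the opposite direction.

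RPL5, whose bacterial counterpart holds a ribosomal RNA, behaved otherwise on that scale. Its intensities were 0.252, 0.476 and 0.663 in WT (lowest, median and highest) and 0.166, 0.324 and 0.830 in atpc1-1. The genotypes overlapped over most of their range, and the median was lower in atpc1-1. RPS10, in the head of the small subunit, stood at 0.378, 0.626 and 0.766 in WT and at 0.0584, 0.359 and 0.490 in atpc1-1. Its atpc1-1 columns reached into the lower WT columns.

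The remaining genes gave weak signals. RPS6 stood at 0.0760, 0.170 and 0.260 in WT and at 0, 0.0965 and 0.228 in atpc1-1, and the genotypes overlapped. RPL34 stood at 0.0647, 0.128 and 0.284 in WT and at 0, 0.0340 and 0.108 in atpc1-1, with all of its atpc1-1 columns below the WT median. RPL29 had a median of 0 in WT and a highest value of 0.0935, against a median of 0.0118 and a highest value of 0.359 in atpc1-1.

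Detection divided the group in the same way. RPL5, RPL17 and RPS10 were above 0 in all 20 columns, as were 1761 of the 3439 rows. RPS6 was above 0 in 10 WT and 9 atpc1-1 columns, and RPL34 in 10 WT and 7 atpc1-1 columns. RPL29 was above 0 in 4 WT and 5 atpc1-1 columns, and in atpc1-1 each of the 5 replicates had a signal in exactly 1 of its columns. Over all rows, 43.9% had a signal in fewer columns of atpc1-1 than of WT and 3.61% in more, so RPL29 was in the smaller class. In an exact permutation test over the replicates (two-sided, n = 5 per genotype) the difference in the number of columns above 0 did not pass for RPL34 (p = 0.167), RPS6 (p = 1.0) or RPL29 (p = 1.0), with 3 genes tested and no adjustment. Counting only columns above the 10th percentile of their positive values, RPS6 had 6 WT and 8 atpc1-1 columns, RPL34 had 7 and 4, and RPL29 had 0 and 3. None of these differences passed (exact permutation p = 1.0 for RPS6, 0.476 for RPL34 and 0.167 for RPL29).

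**Figure D2:**
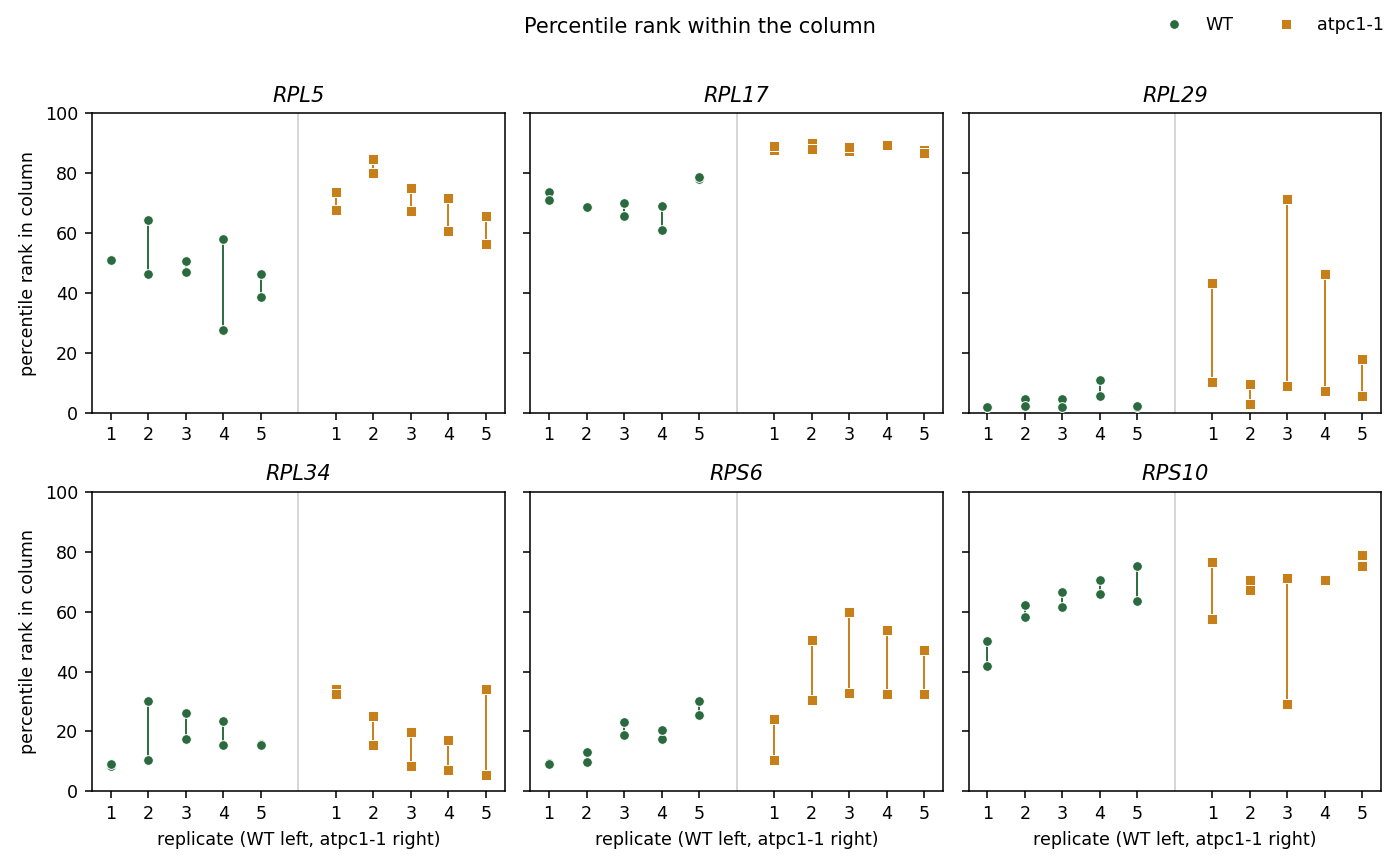
Percentile rank of each gene among the 3439 rows of its column (0 dimmest, 100 brightest), by replicate and genotype. Points are columns and vertical lines join the columns of a replicate. RPL17 lies between 86.7 and 90.0 in all atpc1-1 columns, RPL5 shifts upward, and RPS6 and RPL29 spread widely between columns of 1 replicate in atpc1-1.

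Since the columns differ in overall brightness, the position of a gene among all rows of its own column was compared next. A percentile rank of 50 means that as many rows are brighter as are dimmer. It does not depend on the scale of the column, and it orders spots and not amounts of transcript. In rank, 4 of the 6 genes rose in atpc1-1, 0 fell and 2 did not pass the limma test. Over all 3439 rows 25.1% were called, 13.8% as higher and 11.3% as lower. The median rank difference of the 6 genes was 18.2 percentile points, against 0.70 over all rows, and 6 of 6 were positive, against 52.9% of all rows. The smallest, that of RPL34, was 2.72 points and fell to -0.61 with 1 replicate left out. With tied zeros at the lowest rank, an alternative added after seeing the data, it was 0.61. RPL29, RPL34 and RPS6 had mean WT ranks of 3.78, 17.2 and 17.7, with more room to rise than to fall. The rows at large were not matched to them in rank, and a value of 0 ranked higher in atpc1-1 columns. In log2 intensity after quantile normalisation 5 of 6 were positive, against 41.5% of tested rows, and RPL34 was negative at -0.54.

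RPL17 held ranks of 72.3, 68.8, 67.9, 65.0 and 78.5 in WT replicates 1 to 5 and of 88.4, 89.1, 88.1, 89.2 and 87.2 in atpc1-1 replicates 1 to 5. The highest WT replicate, number 5, stayed below the lowest atpc1-1 replicate, and the single columns did not overlap either, which held for 4.89% of all rows in this direction. The mean moved from 70.5 ± 5.19 to 88.4 ± 0.824 (SD, n = 5 each), a difference of 17.9 points (SE 2.59, limma adjusted p = 0.00265). In log2 intensity after quantile normalisation the gene rose 2.35-fold, and it was called under each of the 24 alternatives tried, scalings and left-out replicates included (limma adjusted p from 1.25e-06 to 0.0276). Its spread in atpc1-1 was the smallest among the 6 genes.

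RPL5 held ranks of 50.9, 55.4, 48.9, 42.9 and 42.5 in WT and of 70.6, 82.3, 71.1, 66.2 and 61.1 in atpc1-1. The replicates did not overlap, as in 11.1% of all rows in this direction, although single columns did, with a highest WT column of 64.4 and a lowest atpc1-1 column of 56.3. The mean rose from 48.1 ± 5.50 to 70.2 ± 7.84 (SD, n = 5 each), by 22.1 points (SE 4.16, limma adjusted p = 0.00644). This is more than the rank difference of 94.1% of all rows. The log2 difference of the same gene was 0.83 (SE 0.28) and missed the threshold (limma adjusted p = 0.0521, and 0.00493 to 0.744 over its alternatives). In the log2 fit over 3298 rows 24.5% were called, 10.2% as higher and 14.3% as lower, and 2 of the 6 genes, RPL17 and RPL29, were called higher and 0 lower. The RPL29 call compares only the columns above 0.

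RPS6, of the small subunit, held ranks of 9.38, 11.5, 20.9, 18.97 and 27.8 in WT and of 17.2, 40.4, 46.4, 43.1 and 39.9 in atpc1-1. Replicates 2 to 5 of atpc1-1 lay above all of WT, and replicate 1 lay within the WT range. The mean rose from 17.7 ± 7.44 to 37.4 ± 11.6 (SD, n = 5 each), by 19.7 points (SE 5.79, limma adjusted p = 0.0351). Its log2 difference of 0.75 (SE 0.53) was not called (limma adjusted p = 0.317). The median of its deposited intensities was lower in atpc1-1, at 0.0965 against 0.170 in WT. The call did not hold without WT replicate 1, 2, 3 or 4 or atpc1-1 replicate 2, 3, 4 or 5, with limma adjusted p-values up to 0.0824. Over all alternatives they ran from 0.00509 to 0.207. The call was also lost when tied zeros were given the lowest rank (18.6 points, limma adjusted p = 0.0692).

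Columns of 1 replicate also differed for RPS6 in atpc1-1. The even-numbered column ranked above the odd-numbered one in 5 of 5 replicates, by 13.6 to 27.04 points, and the mean ranks were 47.1 and 27.7. In WT the even-numbered column was higher in 3 of 5. For RPL5 it was the higher one in 5 of 5 WT replicates and in 4 of 5 of atpc1-1. Of all rows, 3.63% had the even-numbered column higher in all 5 atpc1-1 replicates and 3.52% in all 5 WT replicates, so this pattern, picked among 6 genes after seeing the data, sets neither gene apart. The genotype difference was 28.8 points from even-numbered columns (limma adjusted p = 0.0179) and 10.5 points from odd-numbered columns (limma adjusted p = 0.207), a split chosen after seeing the data.

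RPL29, at the exit of the nascent chain in bacteria, held ranks of 1.88, 3.39, 3.26, 8.32 and 2.06 in WT and of 26.7, 6.30, 40.1, 26.8 and 11.8 in atpc1-1. Replicate 2 of atpc1-1 lay below WT replicate 4, and the other atpc1-1 replicates lay above WT. The mean rose from 3.78 ± 2.62 to 22.3 ± 13.4 (SD, n = 5 each), by 18.5 points (SE 5.76, limma adjusted p = 0.0430). The call did not hold without any 1 of the WT replicates or without atpc1-1 replicate 1, 3 or 4, with limma adjusted p-values up to 0.0876 and, over all alternatives, from 0.00891 to 0.217. A value of 0 ranks at 1.83 to 2.20 in WT columns and at 2.86 to 10.4 in atpc1-1 columns, because more rows are tied at 0 there. With tied zeros at the lowest rank, an alternative added after seeing the data, the difference was 16.3 points (limma adjusted p = 0.0568). The part of the unequal number of zeros in this result was otherwise not tested.

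RPL29 also shows how far columns of 1 replicate could differ. The largest gap within a replicate was 62.2 points in atpc1-1, with a median gap of 33.2, while the largest gap of RPL17 in atpc1-1 was 1.83. In the log2 fit RPL29 passed (limma adjusted p = 0.0193), but that fit uses only the columns above 0, and only 3 of 5 WT replicates gave a value. Its call was lost in 5 of the 17 alternatives that could test it, with limma adjusted p-values up to 0.195. The rest of the 24 alternatives left it too few values. Neither a fold change nor a log2 difference is given for RPL29, because its WT median is 0.

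RPS10 and RPL34 did not pass. RPS10 held ranks of 45.9, 60.1, 64.1, 68.2 and 69.4 in WT and of 67.2, 68.9, 50.1, 70.6 and 77.1 in atpc1-1, with overlapping ranges. Its difference was 5.21 points (SE 5.80, 95% interval -7.78 to 18.2, limma adjusted p = 0.538). In atpc1-1 replicate 3 its columns differed by 42.2 points, the odd-numbered column standing at an intensity of 0.0584 and the even-numbered one at 0.348. RPL34 held ranks of 8.83, 20.3, 21.8, 19.5 and 15.6 in WT and of 33.2, 20.3, 14.0, 12.2 and 19.9 in atpc1-1. Its difference was 2.72 points (SE 4.23, 95% interval -6.76 to 12.2, limma adjusted p = 0.676). Both intervals include 0, and that of RPS10 also includes the 17.9 points of RPL17.

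**Figure D3:**
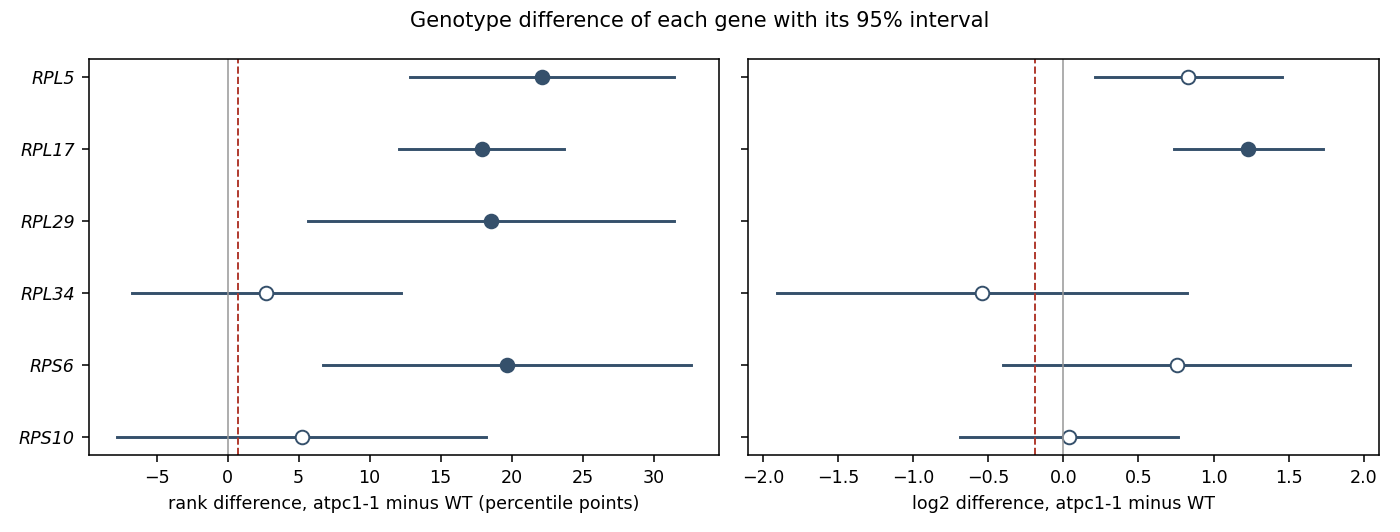
Difference between genotypes (atpc1-1 minus WT) of each gene, in percentile rank on the left and in log2 intensity after quantile normalisation on the right. Bars are 95% intervals of the limma fit, filled points passed at an adjusted p under 0.05, and the dashed line is the median of all rows. RPL17 is filled on both sides, RPL5 and RPS6 only on the left. RPL29 is left out on the right because its WT median is 0.

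Leaving out WT replicate 5, the replicate that stood apart, gave rank differences of 20.7 points for RPL5 (limma adjusted p = 0.00866), 19.9 for RPL17 (0.000264) and 22.2 for RPS6 (0.0222), and 18.1 for RPL29 (0.0616). RPS10 then stood at 7.18 and RPL34 at 2.31, and neither was called. RPL5 and RPL17 were called in rank in each of the 10 fits with 1 replicate left out, at 19.1 to 24.4 and 16.5 to 19.9 points. Both of these genes belong to the large subunit, and no test compared the subunits.

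The direction in absolute terms depended on how the columns were scaled. On the deposited scale the median log2 difference of all tested rows was -1.22, and with mean scaling it was -1.08. There RPL5 stood at -0.29 and -0.14, RPS6 at -0.73 and -0.59, and RPS10 at -0.97 and -0.83, the last called as lower (limma adjusted p = 0.0235 and 0.0479). RPL34 was called lower on both, at -2.17 and -2.02. RPL17 was called higher on both, at 0.58 (limma adjusted p = 0.0276) and 0.72 (limma adjusted p = 0.0136). Of all 3298 rows tested, 1896 were called lower and 126 higher on the deposited scale. With mean scaling 1666 were called lower and 150 higher, so a call as lower was common on both. RPL17 was thus the 1 gene of the group called higher on every scaling.

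The distance of each gene from the median of all rows in the same scaling moved less than its fitted difference. Over the 5 scalings RPL17 lay 1.31 to 1.80 above that median on the log2 scale and RPL5 lay 0.93 to 1.17 above it. RPS6 lay 0.48 to 0.94 above it and RPS10 0.23 to 0.39. RPL34 lay on the other side, at -0.35 to -1.13. Deposited scale, median centring and mean scaling differ only by a constant per column and are not separate results.

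**Figure D4:**
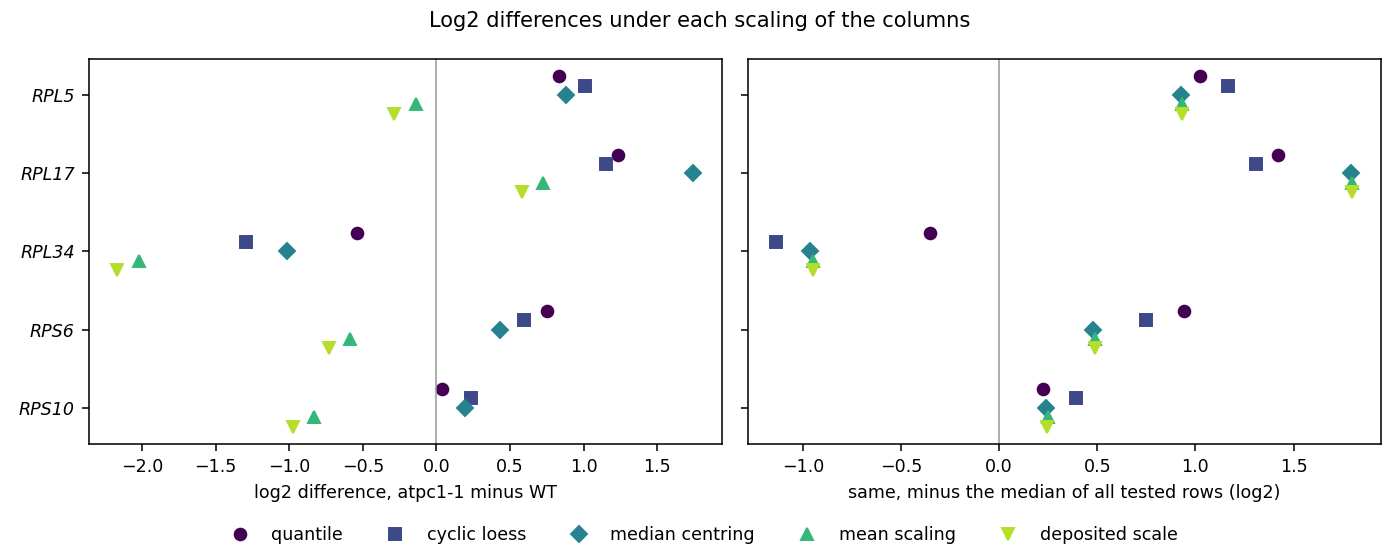
Log2 difference of 5 genes (atpc1-1 minus WT; RPL29, with a WT median of 0, is left out) under 5 scalings of the columns, as fitted on the left and after subtracting the median of all tested rows on the right. RPL5, RPS6 and RPS10 change sign on the left, and no gene changes sign on the right.

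Co-variation among the genes was measured over the 10 replicates after removing each genotype's mean rank, so that the difference between genotypes does not enter. Where 2 replicates are left out below, they were picked by rank before that removal, against the median over both genotypes. The genotype difference can enter that choice. None of the 15 pairs passed by Pearson r of ranks (exact permutation within genotypes over 14400 relabelings, two-sided, Benjamini-Hochberg over 15 pairs). By that measure 0 had an unadjusted p under 0.05. Pearson r ran from -0.583 for RPL34 with RPS6 (exact p = 0.139, adjusted p = 0.810) to 0.399 for RPL34 with RPS10 (exact p = 0.284, adjusted p = 0.810), with a median of -0.114, and 5 pairs were positive. RPL5 and RPL17, both called higher in rank in atpc1-1, had r = -0.0477 (exact p = 0.911) and rho = 0.0303 (exact p = 0.943) within genotypes. Their r was 0.247 without the 2 replicates farthest from the median of RPL5. Among all rows above 0 in every column, 66.1% had an r with RPL17 of at least -0.0477, and 46.5% had such an r with RPL5.

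A pair apart was RPL5 with RPS10, with rho = -0.806 (exact p = 0.0161, adjusted p = 0.242) and r = -0.436 (exact p = 0.239, adjusted p = 0.810), or r = -0.618 without the 2 replicates farthest from the median of RPL5. RPL34 and RPS10 correlated at r = 0.761 on the deposited log2 scale (exact p = 0.00639, adjusted p = 0.0639). After quantile normalisation their log2 values gave r = 0.702 (exact p = 0.03125, adjusted p = 0.3125). In rank the same pair had r = 0.399 (exact p = 0.284) and rho = 0.0788 (exact p = 0.845). RPL34 with RPS6 had rho = -0.382 (exact p = 0.306) and r = -0.633 without the 2 replicates farthest from the median of RPL34. These values do not show that the genes vary independently, since a p that misses the threshold is no sign of that.

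**Figure D5:**
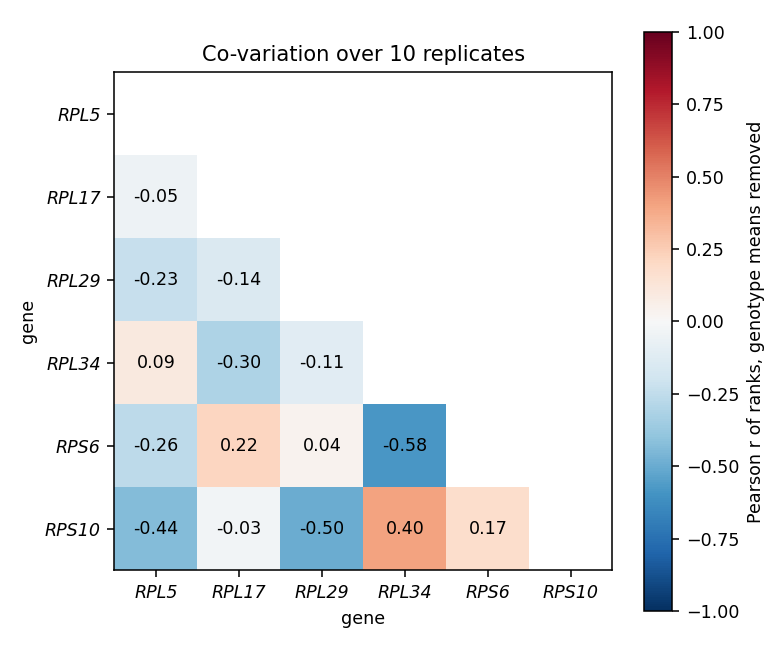
Pearson r of percentile ranks between the 6 genes over 10 replicates, after removing each genotype's mean. Red is positive and blue negative. Values run from -0.58 to 0.40 and no pair passed the test.

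The single-gene rows that varied most like each gene within genotypes were sought among 320 rows above 0 in every column, with no test since they were picked for their r. For RPL17 these were AT2G21530 at r = 0.950 and AT4G20690 at r = 0.918 over 10 replicates. The ranks of RPL17 had an SD of 5.19 in WT and 0.824 in atpc1-1, so these r rest mostly on the WT replicates. Among those, replicate 5, which stood apart across rows, lay farthest from the WT mean (78.5 against 70.5). Both also stood higher in atpc1-1, at mean ranks of 68.6 in WT and 85.3 in atpc1-1 for AT2G21530 and of 61.4 and 82.9 for AT4G20690. For RPL5 they were AT4G24750 at r = 0.821 and AT5G17630 at r = 0.765, the latter with a mean rank of 93.4 in WT and 58.1 in atpc1-1, opposite to RPL5. For RPS10 they were AT2G46630 at r = 0.830 and AT3G57120 at r = 0.825. No other gene of the 6 was among them, but RPL29, RPL34 and RPS6, at 0 in some columns, were not among the rows searched.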

How the data were processed

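The deposited file is a table of array intensities on a linear scale, with 3439 rows (spotted probes) and 20 columns. What the authors did to make these intensities (background correction, scaling, filters) is not stated in the labels or the file. In the deposited values, column means lie between 0.920 and 1.06 and no value is negative. Columns of adjoining replicate numbers (1 with 2, 3 with 4, and so on) were averaged and counted as 1 replicate, as in an earlier analysis of these columns, so n = 5 per genotype. Log2 intensities were quantile normalised with 0 as missing, and a row was tested with values in at least 3 replicates of each genotype (3298 rows). Percentile ranks were taken within each column over all 3439 rows, with tied zeros given the mean of their ranks. Both were fitted with limma 3.58.1 in R 4.3.3 (lmFit and eBayes, genotype as the only term, two-sided) and tested on simulated data, with Benjamini-Hochberg adjustment over all rows tested, and a row was called at an adjusted p under 0.05. Detection and correlations used exact permutation tests (Python 3.11.15, NumPy 2.4.6). Named genes are the 6 genes chosen, other rows for ribosomal proteins or listed plastid expression factors, and, for each of the 6 above 0 in all columns, the 2 single-gene rows that varied most like it. These genes, lists and tests were chosen with earlier results of these data known. Alternatives were other scalings, treatments of zeros, filters, replicate definitions and each replicate left out. Same-numbered replicates of the genotypes correlated at 0.0326 to 0.306 in their deviations from the genotype mean. The atpc1-1 replicate with the highest correlation had the same number for WT replicates 1, 2 and 5. For WT replicates 3 and 4 it was replicate 2. These values do not settle whether the numbers pair the genotypes, and the main fits assume no pairing. Gene identities come from the platform annotation, matched to RefSeq's table of assembly TAIR10.1 for names only. No coordinates are printed because the sources name no build.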

Additional observations from a re-analysis of the deposited data

Results flagged for a closer look

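Of 23 groups, each the replicates of 1 genotype in 1 gene and measure, 4 held a replicate far from the others, where chance gives about 1.15 in independent groups, which these are not. RPS6 in atpc1-1 replicate 1 lay low, at rank 17.2 with a gap to its nearest neighbour of 0.778 of the group's range, and at a log2 intensity of -4.76 with a gap of 0.929. RPL29 in WT replicate 4 lay high at rank 8.32, with a gap of 0.765 of the range. RPL5 in atpc1-1 replicate 2 lay high at a log2 intensity of -0.12, with a gap of 0.718.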

How the results depend on the processing

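In rank, RPL5 and RPL17 were called under all 19 alternatives. The count of 4 genes higher fell to 2 among rows above 0 in all columns (where only 3 of the 6 genes have a rank), from odd-numbered columns alone and with tied zeros at the lowest rank (the last pair, like the even-numbered columns below, added after seeing the data), and to 2 to 3 with 1 replicate left out. RPL29 missed in 13 of 18 alternatives and RPS6 in 10 of 18. RPL34 in rank ranged from -0.61 to 4.65 points with 1 replicate left out. In log2, RPL17 was called under all 24 alternatives. The count of 2 genes higher was 1 with mean scaling, without scaling (deposited scale), with zeros at the lowest positive value, with pairs taken as random blocks and from even-numbered columns, 4 with a pseudocount of 0.05, and 1 to 3 with 1 replicate left out. With random blocks, from even-numbered columns and without WT replicate 2, 3 or 4, RPL29 had too few values to be tested. The count of 0 genes lower became 2 with the deposited scale kept and 2 with mean scaling, where 1896 and 1666 of 3298 rows were called lower. On those scales, in that order, RPL5 turned to -0.29 and -0.14, RPS6 to -0.73 and -0.59, and RPS10 to -0.97 and -0.83, where the median of all rows was -1.22 and -1.08. RPS6 was at -0.0235 with zeros at the lowest positive value. RPL34 turned to 0.46 with zeros ranked, 0.10 with a pseudocount and 0.55 from odd-numbered columns. RPS10 ranged from -0.13 to 0.28 with 1 replicate left out. The median r of pairs was -0.114 in rank and 0.0862 without the 2 farthest replicates, each over 15 pairs. In log2 it was 0.108, over only the 10 pairs without RPL29. The cause of these changes was not tested. With the replicate number as a block, 3 genes were higher in log2, RPL5 among them (limma adjusted p = 0.0444), and 3 in rank, without RPL29 (limma adjusted p = 0.0531). The number is shared, but whether it pairs the samples is not settled. The few arrays limit precision, as does signal near 0 for RPL29, RPL34 and RPS6.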
